A study of Mus musculus with 12 samples.

Results

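The type I interferon response genes described here are 41 genes whose transcripts rise in cells that sense type I interferon. They were taken from the count table by gene symbol, and all 41 were found among its 25238 genes. Their counts were read in RNA-seq libraries of mouse cortex that the labels call peri-infarct cortex, in 3 groups of 4 libraries, 1 library per mouse. The 4 ISP libraries (ISP 12, 14, 16 and 18) came from mice given intracellular sigma peptide, a membrane-permeable peptide that binds the proteoglycan receptor PTPσ, at 1 µg/g/day for 14 days after transient occlusion of the left middle cerebral artery for 45 min. The 4 Veh libraries (Veh 2, 6, 8 and 10) came from mice with the same occlusion that received vehicle, 5% DMSO in saline by the labels and the methods, although the account of the RNA-seq names a scrambled peptide for these mice, so that what Veh mice received is not certain. For the 4 control libraries (control 19, 21, 36 and 38) the labels give no more than the group name, and the treatment text attached to them is the one attached to every library, so that the surgery, treatment and day of these mice are unknown here. The occlusion model is described in males aged 10 to 12 weeks, of the C57BL/6J strain or carrying Nestin-creER and Ai9, and the labels do not say which of these gave each library. Tissue was a 1 mm micro-punch, which holds neurons, glia, vessels and blood cells together.

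Type I interferons bind the receptor made of IFNAR1 and IFNAR2, which activates the kinases JAK1 and TYK2. These phosphorylate STAT2, which joins IRF9 in a complex called ISGF3 that binds interferon-stimulated response elements in promoters. The products of the genes so induced sense viral nucleic acid, block translation, degrade RNA, trap virus particles or tag proteins with ISG15. In brain, microglia, astrocytes, endothelial cells and neurons can all respond, and microglia with this expression program are found in injured and aged tissue.

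All 41 genes had counts, and the same 3 libraries were high for most of them. ISP 14 was the highest of the 12 libraries for 37 of the 41 genes and ISP 18 for the other 4 (Irf9, Ifitm3, Ifi27 and Rtp4). These libraries were the 2 highest for 39 genes, the exceptions being Herc6 and Cmpk2. Veh 10 came next after them in 32 genes and the highest Veh library in 39. ISP 12 lay below Veh 10 in 35 genes and ISP 16 in 38. The summed level of the 41 genes, in CPM, the counts of a gene relative to the counts of its library scaled by edgeR's TMM factors, was 335, 1086, 283 and 877 CPM in ISP 12, 14, 16 and 18, against 265.0, 282, 247 and 460 CPM in Veh 2, 6, 8 and 10 and 199, 202, 193 and 194 CPM in control 19, 21, 36 and 38. The ISP and Veh libraries thus overlapped, and all 8 of them lay above the 4 control libraries in this sum. In punches of mixed tissue, more cells of a responding type and more RNA per cell cannot be told apart.

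**Figure D1:**
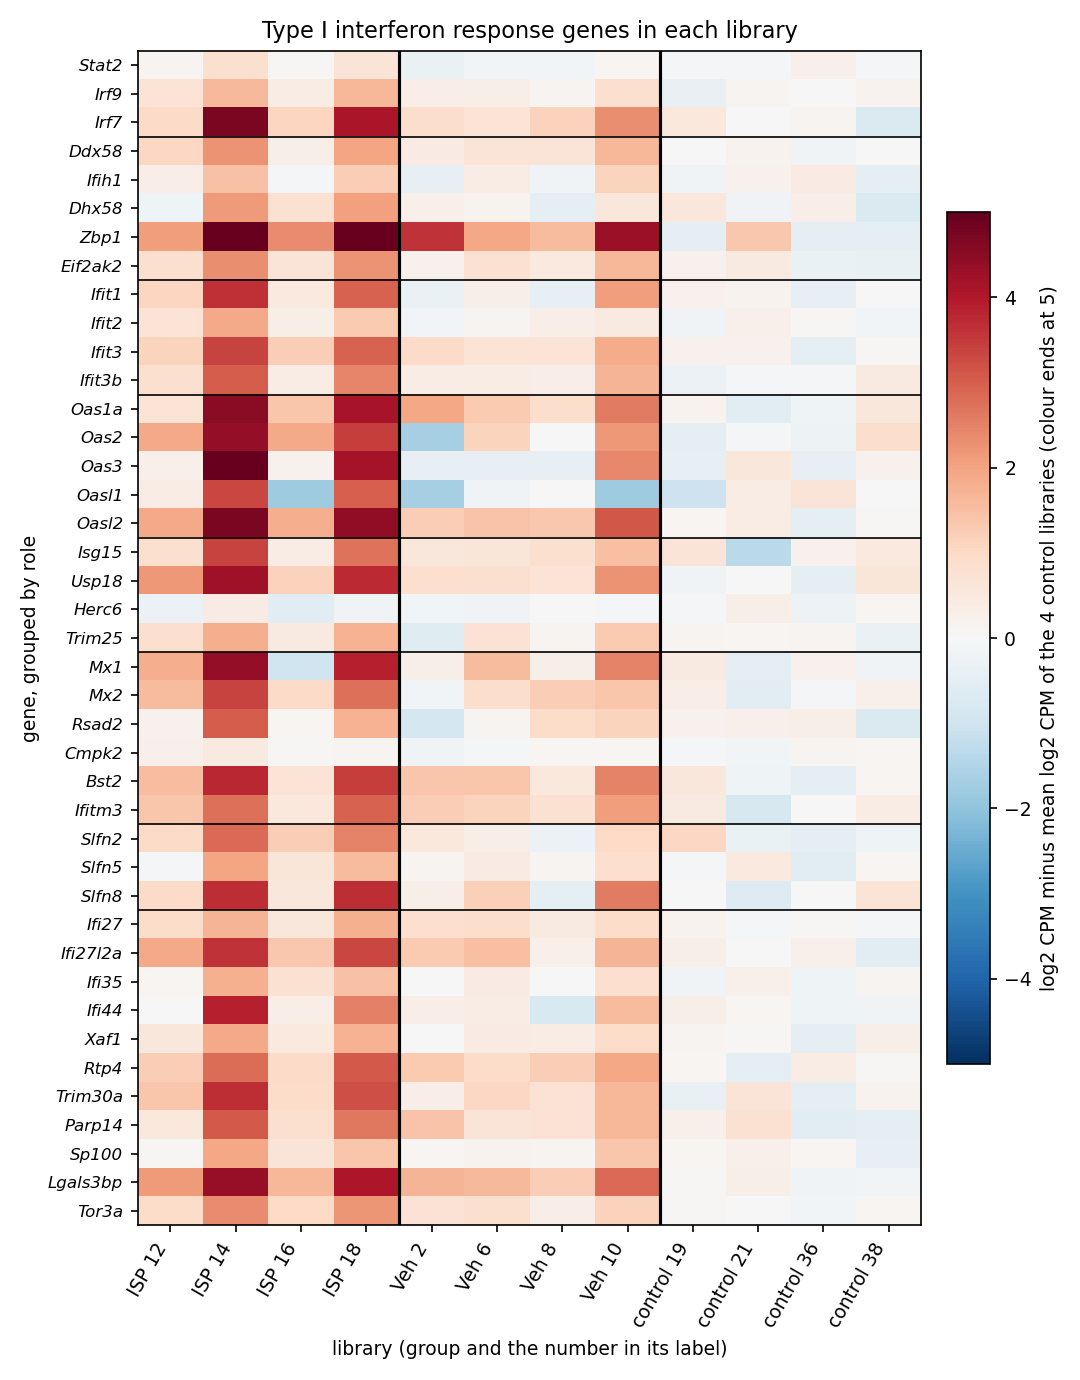
Log2 CPM of the 41 genes (down the page, grouped by role) in the 12 libraries (across), each minus the mean log2 CPM of that gene in the 4 control libraries, with red for higher and blue for lower. The columns of ISP 14, ISP 18 and Veh 10 are the darkest red, and the rows of Herc6 and Cmpk2 stay pale in every library.

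The spread within a group was widest for ISP. Over genes above 0 in every library of a group, the highest library exceeded the lowest by a median of 5.44 times in ISP (41 genes), 2.63 times in Veh (40 genes) and 1.86 times in control (39 genes). Cmpk2 had the narrowest ISP range, at 1.29 times, and Oasl1 the widest, at 96.2 times. The lowest ISP library for Oasl1 was ISP 16 at 0.0483 CPM, which is 1 count, so that this ratio is uncertain. ISP 14 did not exceed ISP 18 by a common factor: Ifi44 was 2.64 times, Rsad2 2.41 times and Oas3 2.11 times as high in ISP 14 as in ISP 18, whereas Rtp4 was 0.832 times and Ifitm3 0.870 times as high. Per kilobase of annotated exon, the highest mean levels in ISP libraries were those of Lgals3bp (43.5 CPM per kb), Ifi27 (37.1) and Ifitm3 (36.1), while Oas3 had the lowest (0.220).

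Several of the genes are neighbours, in the GENCODE M21 annotation of the mm10 genome. Ifit2, Ifit3, Ifit3b and Ifit1 lie within chr19:34550694-34650009. Oas2, Oas3 and Oas1a lie within chr5:120730333-120907521, and Oasl2 and Oasl1 within chr5:114896936-114937915. Rsad2 and Cmpk2 lie on opposite strands within chr12:26442746-26479837, next to each other, and both were highest in ISP 14, over a narrow range of levels for Cmpk2.

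The promoters show how widely the response element is shared among these genes. RefSeq (GRCm38.p6, the assembly of mm10) gave a promoter, from 250 bases before to 50 bases after the start site, for 30 of the 41 genes, and 16 of the 30 (53.3%) held the core of the element, GAAA followed by any 2 bases and GAAA, on either strand, where matches may overlap. Of the 18650 genes of the count table with a promoter, 3.90% held it. The windows below hold the element in 1 or 2 members of some effector families and in Stat2. Windows of other members with a match are not all shown. Capitals mark the matches, written 5′ to 3′ on the strand of the gene, so that a match on the other strand reads TTTC, 2 bases and TTTC.
Isg15 (chr4:156200845-156200926, minus strand): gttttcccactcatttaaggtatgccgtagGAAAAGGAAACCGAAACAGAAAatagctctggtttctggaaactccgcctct
Oas1a (chr5:120907526-120907575, minus strand): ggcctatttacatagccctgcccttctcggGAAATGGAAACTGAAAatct
Bst2 (chr8:71537557-71537632, minus strand): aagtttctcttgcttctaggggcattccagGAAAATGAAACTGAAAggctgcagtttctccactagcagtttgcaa
Ifit1 (chr19:34640755-34640843, plus strand): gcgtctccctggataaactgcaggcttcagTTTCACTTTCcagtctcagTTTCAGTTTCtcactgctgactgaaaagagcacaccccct
Ifit3 (chr19:34583343-34583446, plus strand): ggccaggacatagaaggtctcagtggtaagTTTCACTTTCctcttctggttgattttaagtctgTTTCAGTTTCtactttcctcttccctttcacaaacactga
Rsad2 (chr12:26456533-26456602, minus strand): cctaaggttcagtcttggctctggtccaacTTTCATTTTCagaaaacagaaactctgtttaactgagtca
Stat2 (chr10:128270248-128270315, plus strand): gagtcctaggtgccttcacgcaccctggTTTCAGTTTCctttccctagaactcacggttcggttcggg

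The Isg15 window holds 3 overlapping matches and those of Oas1a and Bst2 hold 2 each, while Ifit1 and Ifit3 have 2 separate matches. The window of Ifit3b is letter for letter that of Ifit3, and their promoters agree at 258 of 260 aligned bases (99.2%). No match was found in the promoters of Irf7, Irf9, Ifit2, Oasl1, Oasl2, Herc6, Trim25, Cmpk2, Slfn2, Ifi35, Ifi44, Xaf1, Sp100 and Lgals3bp, which says only that these letters are not in those windows. The median log2 fold change of ISP with control was 2.16 over the 15 tested genes with a match and 1.32 over the 14 tested genes without one, with ranges of 0.43 to 3.68 and -0.12 to 3.81 that overlap, so that Oasl2 and Lgals3bp, without a match, lay among the largest changes. The 9 tested genes for which RefSeq gave no promoter had a median above both, 2.31 (range 1.32 to 3.48).

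**Figure D2:**
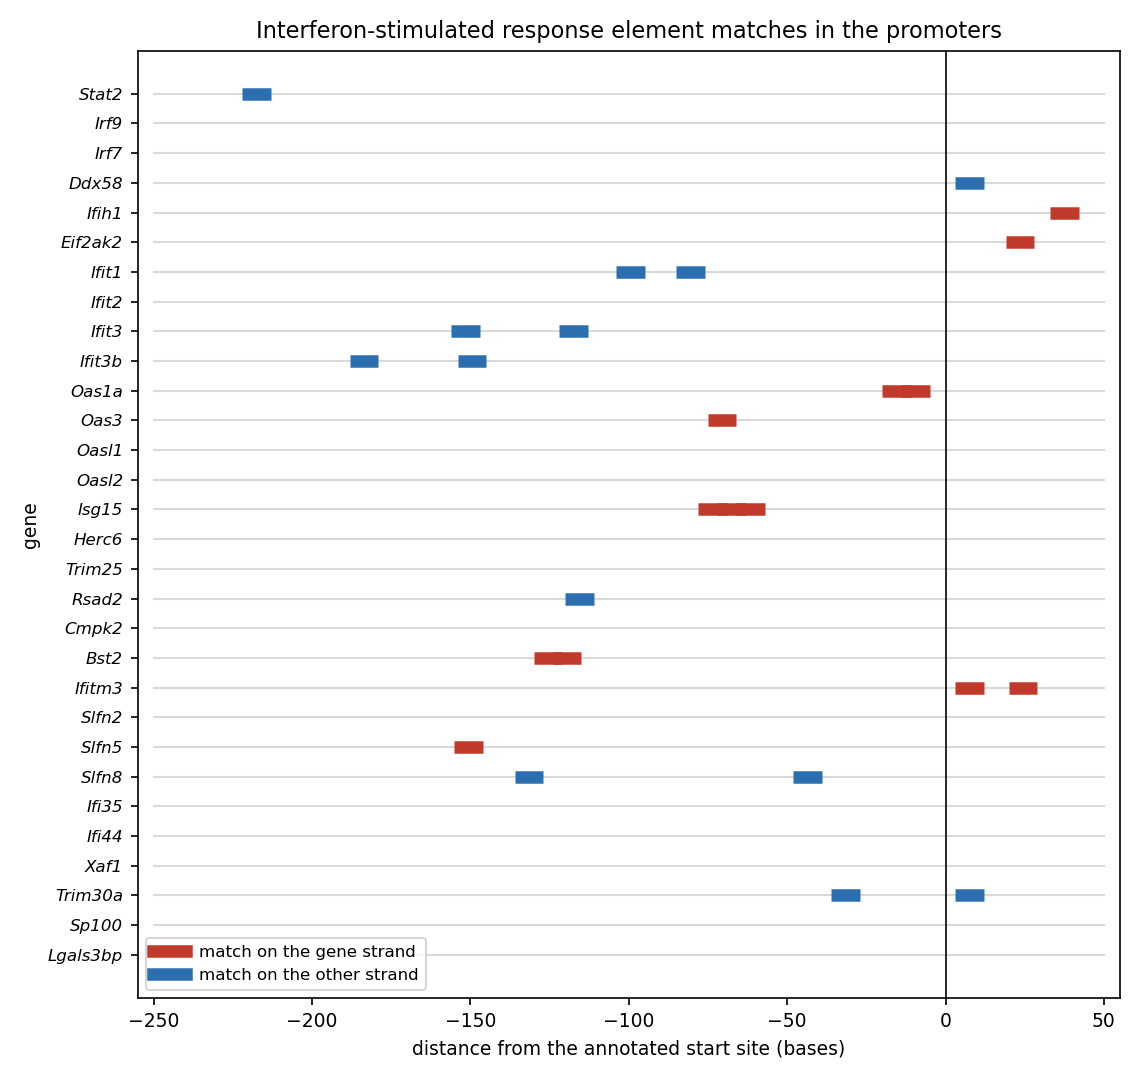
Positions of matches to the response element core (bars) between 250 bases before and 50 bases after the annotated start site (x axis, bases) in the 30 members with a promoter, red on the strand of the gene and blue on the other strand. 16 of the 30 rows hold a bar, and Isg15, Oas1a and Bst2 hold overlapping ones.

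The transcription factors of the response differed in how far they moved. In the lists of values below, libraries stand in the order ISP 12, 14, 16 and 18, then Veh 2, 6, 8 and 10, then control 19, 21, 36 and 38. Irf7, which drives further interferon transcription, had 4.02, 55.4, 4.39 and 35.4 CPM in ISP libraries, against 3.798, 3.29, 4.63 and 10.4 CPM in Veh libraries and 2.98, 2.06, 2.25 and 1.18 CPM in control libraries. ISP 14 and ISP 18 stood far above every other library, Veh 10 came next, and ISP 12 and ISP 16 lay inside the Veh range. Its log2 fold change was 2.17 (SE 0.761, adjusted p = 0.273) for ISP with Veh, 1.39 (SE 0.383, adjusted p = 0.110) for Veh with control and 3.54 (SE 0.761, adjusted p = 0.0296) for ISP with control, by edgeR's quasi-likelihood test with Benjamini-Hochberg adjustment over all genes tested, as for every adjusted p here unless another tool is named. Irf9, the DNA-binding subunit of ISGF3, had 14.7, 28.8, 12.02 and 29.03 CPM in ISP libraries, against 11.6, 11.4, 10.03 and 16.2 CPM in Veh libraries and 7.10, 10.3, 9.39 and 10.6 CPM in control libraries. Its ISP libraries all lay above the control libraries but overlapped the Veh libraries, with a log2 fold change of 1.19 (SE 0.270, adjusted p = 0.0344) for ISP with control. Stat2, its partner, had 29.3, 46.1, 27.9 and 41.7 CPM in ISP libraries, against 21.1, 24.4, 24.5 and 28.4 CPM in Veh libraries and 24.97, 25.7, 31.7 and 25.1 CPM in control libraries. Stat2 in control 36 exceeded both ISP 12 and ISP 16, and its log2 fold change of 0.43 (SE 0.160, adjusted p = 0.136) for ISP with control did not pass the test.

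Among the nucleic acid sensors, the 2 highest on average were Eif2ak2, the kinase PKR that halts translation on double-stranded RNA, and Ddx58, the RNA helicase RIG-I. Eif2ak2 had 5.77, 16.9, 5.26 and 15.98 CPM in ISP libraries, against 3.798, 5.58, 4.72 and 10.7 CPM in Veh libraries and 3.81, 4.59, 2.63 and 2.56 CPM in control libraries. Every ISP library was above every control library, and Veh 10 was above ISP 12 and ISP 16. Ddx58 had 5.87, 13.8, 3.47 and 11.4 CPM in ISP libraries, against 3.798, 4.498, 4.45 and 9.01 CPM in Veh libraries and 2.81, 3.22, 2.46 and 2.79 CPM in control libraries. Both groups of stroke mice lay above the control range for Ddx58, and they overlapped each other. Of the other sensors, Zbp1, which binds Z-form nucleic acid, had 0 counts in 3 of the 4 control libraries and 8.10 CPM in ISP 14. Ifih1 (MDA5) and Dhx58 (LGP2) had log2 fold changes of 0.86 and 1.42 for ISP with control, and neither passed the test.

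The IFIT proteins bind viral RNA and hold back its translation. Ifit3 had 11.5, 55.5, 12.5 and 41.8 CPM in ISP libraries, against 10.4, 8.63, 8.62 and 19.2 CPM in Veh libraries and 6.14, 6.22, 3.696 and 5.54 CPM in control libraries. The ranges of the 4 Veh and the 4 control libraries did not overlap, and ISP 12 and ISP 16 lay inside the Veh range. Ifit3b had 5.31, 25.3, 3.91 and 16.7 CPM in ISP libraries, against 3.92, 3.896, 3.77 and 9.86 CPM in Veh libraries and 2.401, 2.83, 2.89 and 4.07 CPM in control libraries. ISP 14, ISP 18 and Veh 10 were again the 3 highest libraries. The transcripts of Ifit3 and Ifit3b are 97.8% identical over 1700 bases, and HTSeq drops reads that align to both, so that their counts are uncertain. Ifit2 had 14.9, 34.6, 11.4 and 23.2 CPM in ISP libraries, against 8.61, 10.2, 11.8 and 12.9 CPM in Veh libraries and 8.37, 11.02, 9.77 and 8.47 CPM in control libraries. Here ISP 12 was above every Veh library, whereas ISP 16 at 11.4 CPM was not. All 4 IFIT genes, Ifit1 among them, were called higher in ISP than in control, against 6.74% of all genes, with log2 fold changes of 1.16 to 2.60. Without ISP 14 and ISP 18 these were 0.83 for Ifit1, 0.49 for Ifit2, 1.16 for Ifit3 and 0.60 for Ifit3b.

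The OAS family makes oligoadenylates that activate the ribonuclease RNase L. Oasl2, an OAS-like member, had 6.96, 48.3, 6.47 and 40.4 CPM in ISP libraries, against 4.33, 4.899, 4.63 and 15.9 CPM in Veh libraries and 1.92, 2.32, 1.23 and 1.85 CPM in control libraries. All Veh and ISP libraries lay above all control libraries, and Veh 10 was above ISP 12 and ISP 16. Oasl2 had the largest log2 fold change of the 38 genes tested in ISP with control, 3.81 (SE 0.635, adjusted p = 0.0199), and of the 36 tested in Veh with control, 2.04 (SE 0.419, adjusted p = 0.0732). Oas1a had 0.618, 9.91, 1.06 and 7.56 CPM in ISP libraries, against 1.602, 1.004, 0.726 and 2.55 CPM in Veh libraries and 0.412, 0.214, 0.297 and 0.568 CPM in control libraries. ISP 12 was the lowest of the 8 stroke libraries for Oas1a, yet above every control library. Oas1a and its neighbour Oas1g are 97.5% identical over 1860 bases of transcript, which leaves the Oas1a counts uncertain. Oas3 had enough counts in too few libraries to pass edgeR's count filter in any comparison, and Oasl1 was tested only in ISP with control.

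In the ISG15 system, Isg15 is the ubiquitin-like tag, Usp18 removes it and restrains the receptor, Herc6 is the mouse ISG15 ligase and Trim25 is a ubiquitin ligase that activates RIG-I. Herc6 and Trim25 had the highest mean levels of the 4. Herc6 had 13.3, 21.4, 11.2 and 14.5 CPM in ISP libraries, against 14.7, 14.5, 15.8 and 15.2 CPM in Veh libraries and 15.02, 19.7, 13.4 and 17.5 CPM in control libraries. It overlapped across all 3 groups and was the only gene of the 38 tested in ISP with control with a fitted log2 fold change below 0, -0.12 (SE 0.192, adjusted p = 0.777). Of its exon bases, 13.7% are shared with a predicted gene on the same strand. Trim25 had 8.35, 16.9, 6.47 and 16.04 CPM in ISP libraries, against 3.09, 7.91, 5.17 and 11.8 CPM in Veh libraries and 5.15, 5.102, 5.14 and 3.69 CPM in control libraries. Its ISP libraries all lay above the control libraries, while Veh 2 was the lowest of all 12. Isg15 and Usp18 reached 16.9 CPM and 13.4 CPM in ISP 14, and their log2 fold changes in ISP with control were 2.19 and 3.40.

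Among the membrane, GTPase and nucleotide effectors, Cmpk2, a mitochondrial nucleotide kinase, had 31.9, 35.8, 27.7 and 28.9 CPM in ISP libraries, against 23.3, 25.5, 28.3 and 28.6 CPM in Veh libraries and 24.7, 23.9, 29.1 and 28.4 CPM in control libraries. Like Herc6 it did not separate the groups, and none of its 3 comparisons passed the test. Ifitm3, which blocks fusion of viruses with the endosome, had 13.8, 35.6, 7.53 and 40.9 CPM in ISP libraries, against 12.2, 11.4, 8.94 and 22.1 CPM in Veh libraries and 7.03, 2.92, 5.14 and 6.81 CPM in control libraries. All 8 stroke libraries lay above the control libraries for Ifitm3, and ISP 16 was below every Veh library. Bst2 (tetherin), which holds budding virus at the cell surface, averaged 18.9 ± 15.4 CPM in ISP, 7.92 ± 4.67 CPM in Veh and 2.62 ± 0.863 CPM in control libraries (SD, n = 4 each). Mx1 and Mx2, dynamin-like GTPases, share 94.8% identity over 920 bases of transcript and Mx2 is annotated as a polymorphic pseudogene, so that both are uncertain. Rsad2 (viperin) had an adjusted p of 0.102 for ISP with control, just outside the threshold of 0.1.

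Of the Schlafen genes, Slfn2, needed for T cell quiescence in mice, had 3.504, 12.9, 4.25 and 10.2 CPM in ISP libraries, against 2.55, 2.17, 1.41 and 3.54 CPM in Veh libraries and 3.64, 1.37, 1.23 and 1.47 CPM in control libraries. Control 19 stood above the other control libraries and above ISP 12, and ISP 14 and ISP 18 were the 2 highest. Slfn2 had the smallest p of the 39 genes tested in ISP with Veh, with a log2 fold change of 1.68 (SE 0.434, adjusted p = 0.261). Slfn5 had 5.204, 22.1, 8.59 and 16.99 CPM in ISP libraries, against 6.23, 7.55, 6.17 and 10.2 CPM in Veh libraries and 5.39, 7.89, 3.91 and 5.96 CPM in control libraries. ISP 12 was below every Veh library for Slfn5 and below 3 of the 4 control libraries. Slfn8 is 92.6% identical to Slfn9 over 3496 bases, so that its log2 fold change of 2.98 in ISP with control is uncertain.

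Among the other induced genes, Lgals3bp, a secreted glycoprotein that binds galectins, had 48.2, 229.5, 35.4 and 182 CPM in ISP libraries, against 36.3, 33.9, 25.8 and 79.0 CPM in Veh libraries and 11.4, 13.5, 9.73 and 10.1 CPM in control libraries. Every Veh and every ISP library lay above every control library, the lowest of the 8 being Veh 8. Its log2 fold change was 3.47 (SE 0.522, adjusted p = 0.0186) for ISP with control, 1.98 (SE 0.287, adjusted p = 0.0373) for Veh with control and 1.503 (SE 0.555, adjusted p = 0.277) for ISP with Veh. Ifi27, a mitochondrial interferon-induced protein, had 40.7, 70.4, 31.7 and 74.8 CPM in ISP libraries, against 39.2, 39.7, 29.3 and 41.1 CPM in Veh libraries and 24.4, 19.98, 22.5 and 20.02 CPM in control libraries. The 8 stroke libraries lay above the 4 control libraries, 3 of the 4 Veh libraries fell within 39.2 to 41.1 CPM, and ISP 16 was below those 3. The other 9 genes (Ifi27l2a, Ifi35, Ifi44, Xaf1, Rtp4, Trim30a, Parp14, Sp100 and Tor3a) each had ISP 14 and ISP 18 as the 2 highest libraries. All 9 were called higher in ISP than in control, against 6.74% of all genes, with log2 fold changes of 1.18 for Sp100 to 2.87 for Ifi27l2a.

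**Figure D3:**
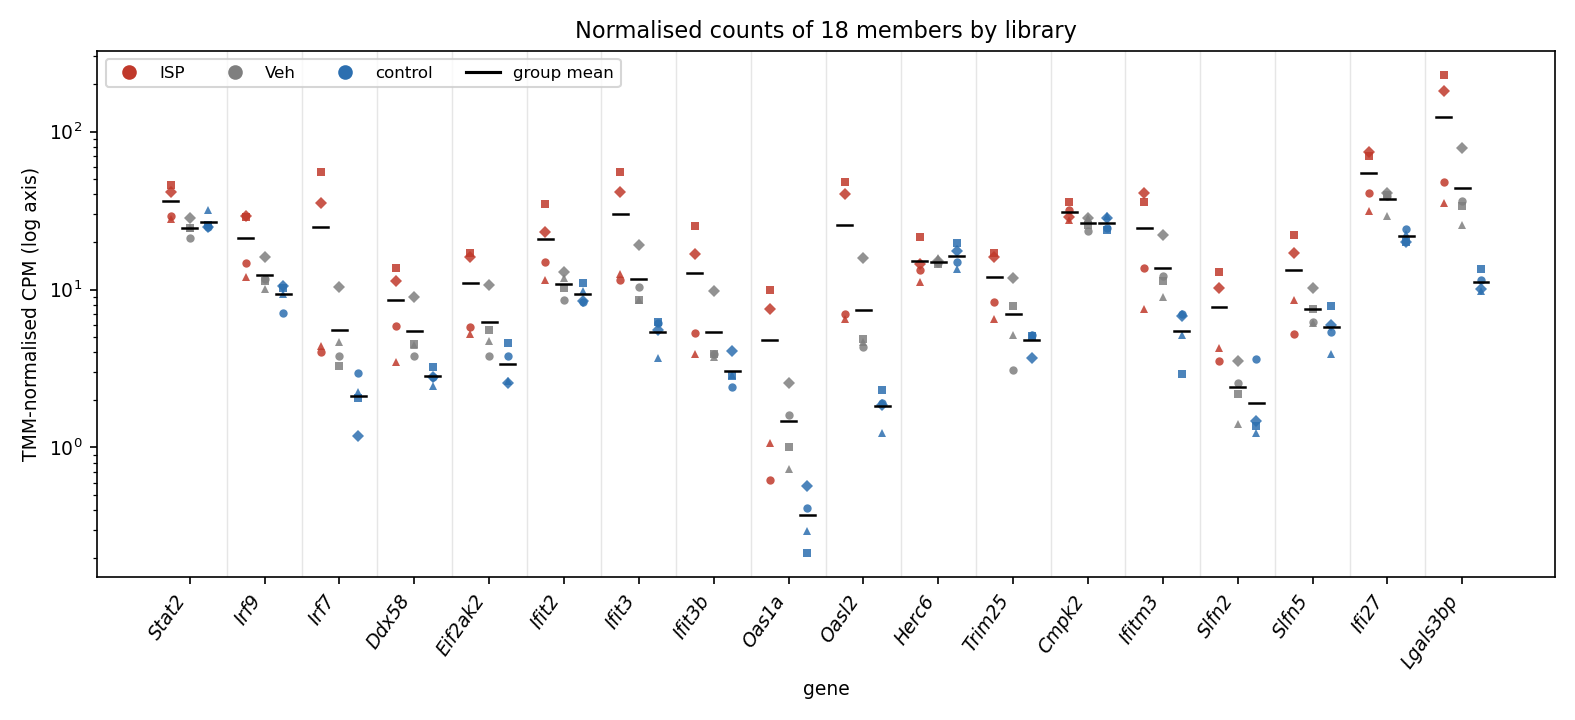
CPM on a log axis of 18 members in each library, with ISP (red) left of Veh (grey) left of control (blue) for each gene; shapes tell the 4 libraries of a group apart and black bars are group means. For most genes a pair of red points, ISP 14 and ISP 18, lies far above the other ISP libraries, as for Lgals3bp at 229.5 and 182 CPM against 48.2 and 35.4 CPM in ISP 12 and ISP 16.

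ISP with Veh asks what the peptide changed after stroke. All 39 tested genes (Oas3 and Oasl1 had enough counts in too few libraries) had a fitted log2 fold change above 0, where 53% of all 15214 genes tested did. The median of the members was 1.26, against 0.016 over all genes, and the members ranged from 0.0082 for Herc6 to 2.41 for Oas2. Oas2 had 0.059 CPM in Veh 2, which is 1 count, so that its fold change is uncertain. None was called at an adjusted p under 0.1 by edgeR, as for all genes tested (0% called), and 23 of the 39 had an unadjusted p under 0.05 in the higher direction, against 7.87% of all genes. In no member did the 4 ISP and 4 Veh libraries separate, against 2.8% of all genes that did so in the higher direction. DESeq2 called 4 of the 39 higher (Stat2, Ifit2, Slfn2 and Tor3a), against 1.26% of all genes, and limma-voom called 0. Without ISP 14 and ISP 18 the median was -0.13, with 17 members above 0 and 22 below (49.3% of all genes were above), 0 called (0% of all genes) and 0 with an unadjusted p under 0.05 (3.62% of all genes in the higher direction). These are the ISP libraries highest in the members, so the calls and p values of this fit are not valid tests of the members. With Veh 10, the highest Veh library, left out as well the median was 0.25.

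Veh with control sets stroke mice that received vehicle against the libraries labelled control. Of the 36 tested genes (Zbp1, Oas2, Oas3, Oasl1 and Mx1 had enough counts in too few libraries), 10 were called higher and 0 lower, where 1.03% of all 15126 genes tested were called higher and 1.2% lower. They were Lgals3bp, Ifi27, Oasl2, Rtp4, Ifit3, Bst2, Ifitm3, Tor3a, Oas1a and Ifi27l2a, with log2 fold changes of 0.79 for Ifi27 to 2.04 for Oasl2. The groups did not overlap in 11 of the 36, against 4.28% of all genes. The median of the members was 0.81, with Stat2 the lowest at -0.12. All 10 were also called by DESeq2, which called 15 (3.31% of all genes), and 6 of them by limma-voom (0.926% of all genes): Ifit3, Oasl2, Ifitm3, Ifi27, Rtp4 and Lgals3bp. The count fell to 0 without control 21, to 0 without control 36, to 2 without control 38, to 1 without Veh 2 and to 3 without Veh 10, and to 0 with all 12 libraries in 1 fit. Calls over all genes in the higher direction, 156 with all libraries of the comparison, fell alongside, to 0, 3, 20, 6 and 47 in these fits without 1 library and to 9 in the fit of all 12. At an adjusted p under 0.05, Lgals3bp (1.98 (SE 0.287, adjusted p = 0.0373)) and Ifi27 (0.79 (SE 0.121, adjusted p = 0.0373)) remained.

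ISP with control gave the largest differences. Of the 38 tested genes (Zbp1, Oas3 and Mx1 had enough counts in too few libraries), 31 were called higher and 0 lower, where 6.74% of all 15232 genes tested were called higher and 3.42% lower. The median was 2.09, against -0.0087 over all genes. The groups did not overlap in 22 of the 38, against 7.14% of all genes, and 36 had an unadjusted p under 0.05 in the higher direction, against 12.3%. A fitted log2 fold change above 0 was found for 37 of the 38, against 48.6% of all genes. The 7 not called were Stat2, Ifih1, Dhx58, Oasl1, Herc6, Rsad2 and Cmpk2. DESeq2 called 35 (9% of all genes) and limma-voom 20 (6.47%). With ISP 14 and ISP 18 left out, 36 of the 38 still had a log2 fold change above 0, against 49% of all genes, with a median of 0.71, and 6 were called higher, against 0.458% of all genes. Those 6 were Lgals3bp at 1.91, Oasl2 at 1.88, Ifi27l2a at 1.65, Ifit3 at 1.16, Tor3a at 0.96 and Ifi27 at 0.74. ISP 14 and ISP 18 are the ISP libraries highest in these same members, so leaving them out also narrowed the ISP spread. The standard error of Lgals3bp fell from 0.522 to 0.159 while its log2 fold change fell from 3.47 to 1.91. The 6 calls are therefore not valid tests, and the fold changes of this fit are given as sizes only. Without ISP 14 alone 17 were called, and without ISP 18 alone 20, where the calls over all genes in the higher direction were 299 and 368, against 1026 with both libraries. The comparisons share libraries, ISP with Veh and Veh with control the Veh ones, and the others the ISP or the control ones, so that their fold changes are not independent of each other.

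**Figure D4:**
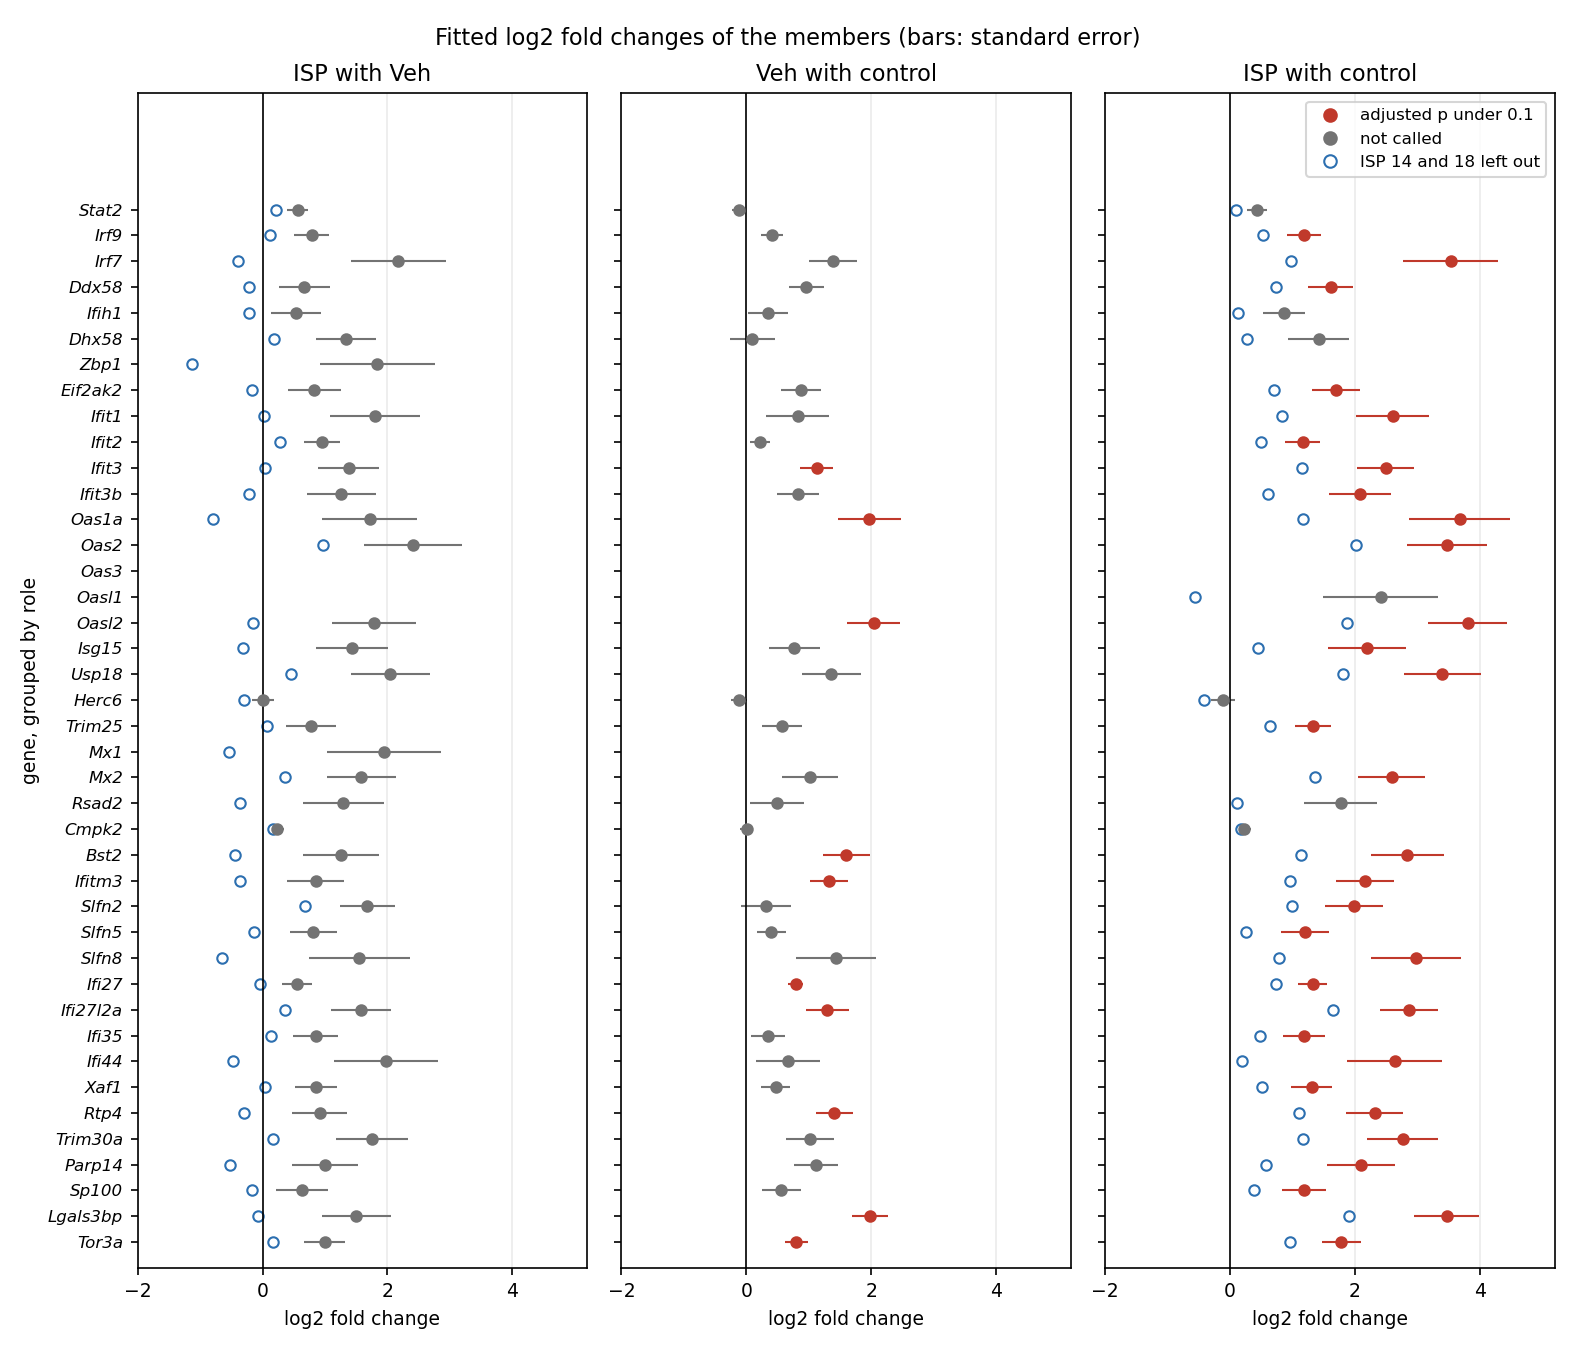
Fitted log2 fold changes (x axis) with standard errors (bars) of the 41 members in each comparison, red where the adjusted p was under 0.1, grey where it was not, and hollow blue for the fit with ISP 14 and ISP 18 left out; genes without a point were not tested. In ISP with Veh the hollow points scatter about 0 (median -0.13), whereas in ISP with control 36 of the 38 lie above it.

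Upstream of these genes the ligands were near or at 0. Of 18 type I interferon genes, 14, Ifnb1 among them, had 0 counts in every library, which allows up to 3 counts per library (0.102 to 0.178 CPM), and the other 4 (Ifna2, Ifna9, Ifna12 and Ifnz) had at most 4 counts in total. Ifng, the type II interferon, had 4 counts in ISP 14 and 0 elsewhere. Of the receptors and kinases, Ifnar1, Jak1 and Tyk2 had log2 fold changes between -0.10 and 0.078 in the 3 comparisons. Ifnar2 was called higher in ISP than in control, 0.63 (SE 0.193, adjusted p = 0.0838), and was not called in Veh with control (0.40, adjusted p = 0.179) or ISP with Veh (0.25, adjusted p = 0.543).

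Cell type markers were read beside the members because the same libraries were high in some of them. For activated microglia and macrophages, the 12 markers summed to 99.3 to 646 CPM in ISP, 88.0 to 209 CPM in Veh and 73.5 to 78.2 CPM in control libraries. For homeostatic microglia, 10 markers summed to 465 to 1215 CPM in ISP, 400.4 to 655 CPM in Veh and 323 to 363 CPM in control libraries. For astrocytes, 6 markers summed to 1074 to 3508 CPM in ISP, 832 to 1663 CPM in Veh and 642 to 699.9 CPM in control libraries. Gfap alone held 1289 CPM in ISP 14 and 2393 CPM in ISP 18, against 24.6 to 31.4 CPM in control libraries. The median over the 6 astrocyte markers of the log2 difference from the control mean was 0.86 in ISP 14 and 0.77 in ISP 18. ISP 14, ISP 18 and Veh 10 held the highest values of these lists. Of the homeostatic microglia list 9 of 10 tested markers were called higher in ISP with control, against 6.74% of all genes. In that comparison 9 of 10 tested markers of the activated list and 5 of 6 astrocyte markers were called higher too. In ISP with Veh 0 markers of these lists were called, as for all genes tested (0%). Oligodendrocyte markers summed to 4678 to 11230 CPM in ISP, 2793 to 6968 CPM in Veh and 3263 to 4923 CPM in control libraries. ISP 18 had the highest oligodendrocyte sum of the 12 libraries and Veh 10 the lowest, and ISP 14 at 6630 CPM lay below ISP 12 at 7267 CPM. The 10 cortical neuron markers, which check the tissue label, summed to 7553 to 9372 CPM in ISP, 8190 to 9323 CPM in Veh and 9023 to 9453 CPM in control libraries, with ISP 18, ISP 14 and Veh 10 the 3 lowest of the 12. The 6 endothelial markers summed to 199.5 to 228 CPM in ISP, 222 to 255 CPM in Veh and 195 to 223 CPM in control libraries. The 8 monocyte and neutrophil markers summed to 0.103 to 7.15 CPM in ISP, 0.119 to 5.52 CPM in Veh and 0.189 to 2.32 CPM in control libraries, with Ly6g at 0 in all 12. T and B cell markers summed to 1.08 to 3.87 CPM in ISP, 0.683 to 2.08 CPM in Veh and 0.6002 to 1.74 CPM in control libraries. ISP 14, ISP 18 and Veh 10 were the 3 highest libraries for both of these low blood cell lists. The part of any cell type in the levels of the 41 genes was not tested.

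**Figure D5:**
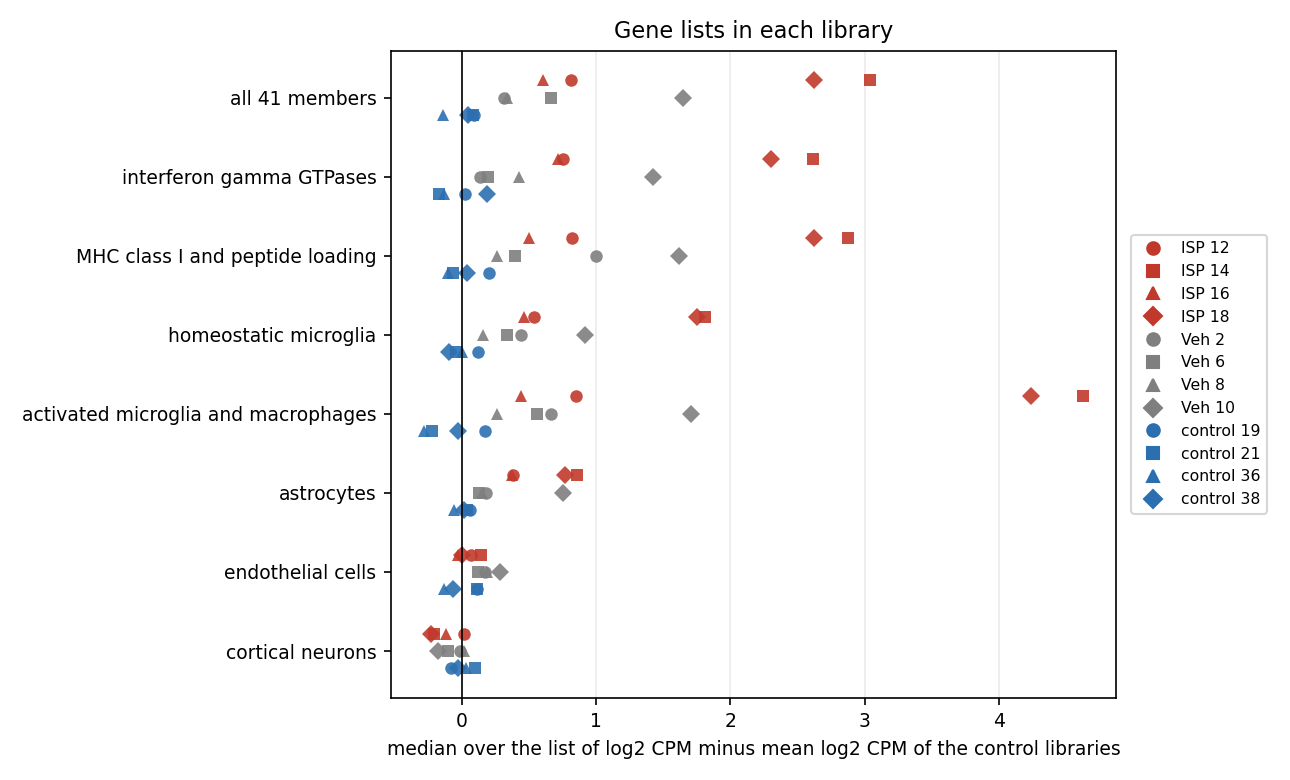
Median over each gene list (rows) of log2 CPM minus the mean log2 CPM of the control libraries (x axis), 1 point per library, ISP above Veh above control within each row. For the 41 members ISP 14 and ISP 18 lie at 3.04 and 2.62 and Veh 10 at 1.65, and the same 3 libraries lead the microglia rows.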

How the data were processed

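RNA-seq libraries of 12 mice were used, in 3 groups of 4. The authors selected polyadenylated RNA with oligo(dT), used HISAT2 for alignment to mm10, HTSeq with its defaults for counting and DESeq2 for testing; their version numbers are not given in the sources used here. Deposited values are raw counts per gene, with library totals of 19325979 to 28685864 in ISP, 17442711 to 24706638 in Veh and 21322702 to 29845629 in control libraries. In the 18 pairs of libraries within a group, the chi-square of counts per degree of freedom was 11.1 to 50.9, so none repeats another within sampling noise. Columns of per-sample values not used were 0.

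Each comparison was fitted on its own 8 libraries over the whole table in R 4.3.3 with edgeR 4.0.16 (filterByExpr by group, TMM, quasi-likelihood test), and genes were called at an adjusted p under 0.1. The edgeR and DESeq2 tests were checked on simulated counts with known changes, and limma-voom was not. In ISP with Veh, Veh with control and ISP with control, edgeR called 15, 11 and 14 unchanged genes. DESeq2 called 52, 39 and 63 of them, so that its calls are less certain. A log2 fold change of 1 was called by edgeR in 79.4%, 84.6% and 76.9% of the genes so changed. The changed genes were drawn at random from all genes tested, and the noise was independent between genes. The members moved together across libraries, so these shares do not apply to them. Their 0 calls in ISP with Veh do not show that nothing changed. Alternatives were DESeq2 1.42.0 and its size factors, limma-voom with quality weights (limma 3.58.1), no filter, at least 10 counts in every library, all 12 libraries in 1 fit, an adjusted p of 0.05, each library left out, and ISP 14 and ISP 18 left out with and without Veh 10. Pathway and marker lists were described by counts and medians, with no list test.

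Values in every library are given for the 2 members of each of 8 role groups with the highest mean CPM. They are also given for all 3 transcription factors and for Ifit3b. Genes with the largest or smallest change in a comparison are named, and of these Oas2 is given without its values in every library. A few others are named with single values, chosen after those values were seen. The members and lists were chosen with earlier results of these data known. Replicates are separate mice as the labels number them. Promoters came from RefSeq GRCm38.p6 and gene positions from GENCODE M21; near copies were found by aligning transcripts with blastn. Some genes outside the 41 members are not reported here.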

Additional observations from a re-analysis of the deposited data

Results flagged for a closer look

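In 8 of 54 groups of 4 libraries (18 members in 3 groups), 1 library stood apart from the other 3 by Dixon's test at its 95% critical value of 0.829, where chance gives about 2.7. Veh 10 stood above the other Veh libraries for Ddx58 (9.01 CPM, next 4.50), Ifit3 (19.2 CPM, next 10.4), Ifit3b (9.86 CPM, next 3.92) and Oasl2 (15.9 CPM, next 4.90). Veh 8 stood below them for Ifi27 (29.3 CPM, next 39.2). Of the control libraries, control 36 was high for Stat2 (31.7 CPM, next 25.7), control 19 was high for Slfn2 (3.64 CPM, next 1.47) and control 38 was low for Trim25 (3.69 CPM, next 5.10). No ISP group met this test, which looks for 1 library apart from the rest and cannot well pick out a pair such as ISP 14 and ISP 18.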

How the results depend on the processing

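No paired analysis was possible because the labels number the mice differently in each group (ISP 12, 14, 16 and 18, Veh 2, 6, 8 and 10, control 19, 21, 36 and 38). The number of members called in ISP with Veh was 0 under every edgeR setting and limma-voom and 4 with DESeq2, and 0 without each library in turn; the median moved to -0.13 without ISP 14 and ISP 18 and to 0.25 without these and Veh 10, while leaving out 1 library gave medians of 0.74 to 1.64. In Veh with control the 10 calls became 6 with limma-voom, 2 at an adjusted p under 0.05 and 0 with all 12 libraries in 1 fit, and 0 to 10 without 1 library. In ISP with control the 31 calls became 20 with limma-voom and 6 without ISP 14 and ISP 18, where the median was 0.71, and 17 to 37 without 1 library. The fits without ISP 14 and ISP 18 leave out the ISP libraries highest in the members, so their calls are not valid tests. Calls over all genes in the higher direction moved alongside, from 1026 to 299 without ISP 14 (17 members called) and to 1465 without ISP 16 (37 members called). DESeq2 size factors, no filter and the filter of at least 10 counts kept these counts within 1.5 times.

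Single members changed sign in ISP with Veh without ISP 14 and ISP 18: Irf7 -0.40, Ddx58 -0.22, Ifih1 -0.21, Zbp1 -1.14, Eif2ak2 -0.17, Ifit3b -0.22, Oas1a -0.79, Oasl2 -0.15, Isg15 -0.32, Herc6 -0.30, Mx1 -0.53, Rsad2 -0.37, Bst2 -0.45, Ifitm3 -0.36, Slfn5 -0.13, Slfn8 -0.64, Ifi27 -0.046, Ifi44 -0.47, Rtp4 -0.30, Parp14 -0.52, Sp100 -0.17 and Lgals3bp -0.066 on the log2 scale. Without Veh 10 as well, Zbp1 was -0.44, Oas1a -0.39, Isg15 -0.045, Herc6 -0.30, Rsad2 -0.094, Ifitm3 -0.030, Ifi27 -0.000146, Rtp4 -0.071 and Parp14 -0.31. In Veh with control, Cmpk2 was -0.00132 with DESeq2 size factors, -0.000809 with DESeq2, -0.01395 with limma-voom and -0.0038 with all 12 libraries in 1 fit. Oasl1 was -0.55 in ISP with control without ISP 14 and ISP 18. Over the fits without 1 library, Herc6 in ISP with Veh gave -0.21 (without ISP 14) to 0.13, and in Veh with control Ifih1 gave -0.043 (without Veh 10) to 0.52, Dhx58 -0.10 (without control 38) to 0.31, Ifit1 -0.13 (without Veh 10) to 1.08 and Cmpk2 -0.047 (without control 21) to 0.055.

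Reads that fit near copies (Ifit3 and Ifit3b, Oas1a and Oas1g, Slfn8 and Slfn9) and the group of 4 mice limit these values, and members at under 1 CPM in control libraries, such as Oas1a and Zbp1, rest on few counts. The surgery and treatment of the control mice are unknown here. The cause of the change without ISP 14 and ISP 18 was not tested.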

Other observations

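Gene groups outside the 41 members moved with the same libraries. Of 10 GTPases that interferon gamma also induces (the Gbp and Irg families), 8 were called higher in ISP with control, against 6.74% of all genes. Their median log2 fold change was 1.76. In ISP with Veh 0 were called (median 1.11), as for all genes tested (0%). In Veh with control 0 were called (median 0.69), against 1.03% of all genes called higher. With edgeR at an unadjusted p under 0.05 in the higher direction, 10 passed in ISP with control, against 12.3% of all genes. In ISP with Veh 6 did, against 7.87%. Their summed level was 186 and 157 CPM in ISP 14 and ISP 18 and 49.3 and 47.8 CPM in ISP 12 and ISP 16, against 37.3 to 76.9 CPM in Veh and 29.5 to 34.6 CPM in control libraries. MHC class I and peptide loading genes, which present antigen, were called higher for 8 of 8 in ISP with control (median 2.17), against 6.74% of all genes. In Veh with control 2 of 8 were called higher (median 0.91), against 1.03%. In ISP with Veh 0 of 8 were (median 1.11), against 0%. Their sum was 225 to 971 CPM in ISP, 192 to 411 CPM in Veh and 143 to 177 CPM in control libraries.

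Other lists of the pathway were also read. Of 8 adaptors and kinases of interferon induction, 3 were called higher in ISP with control (median 0.47), against 6.74% of all genes. In Veh with control 1 was called lower (median 0.12), against 1.2% of all genes. Of 6 tested negative regulators, 3 were called higher in ISP with control (median 0.29), against 6.74% of all genes. Trex1, the seventh of the list, was at 0 counts in all 12 libraries. Overlap with other genes was looked up for the members only, so this 0 need not mean that the transcript was absent.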
